A study of Drosophila melanogaster with 4 samples.

Results

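Eip74EF and Eip75B are the early ecdysone-response genes named for the chromosome puffs they form at 74EF and 75B on arm 3L. Binding of TATA-binding protein (TBP) along them was read from a deposited list of 7769 peaks, of which 1436 lay on 3L. A peak was taken as a member if it overlapped 3L 17550000 to 17640000 for Eip74EF, or 3L 17945000 to 18070000 for Eip75B, by any number of bases. This rule used position only. It gave 19 members, 8 in the 90 kb Eip74EF window and 11 in the 125 kb Eip75B window. Positions are those of FlyBase release 5, per the file headers.

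The series mapped TBP by chromatin immunoprecipitation and sequencing in whole Drosophila melanogaster embryos. Its 4 libraries, 2 of TBP-bound DNA and 2 of input, all share strain, stage and transgene. By the labels the strain was Exd-GFP-13T, of genotype w; PBac{y[+]-attP-3B}VK00033, carrying a genomic copy of exd, a homeodomain gene, with GFP in place of its stop codon. The stage is labelled 0 to 8 h, whereas the extraction text describes a later collection from y; bw cn sp flies, and the sources do not settle which is right. A crude rabbit polyclonal serum against TBP itself was used, so the GFP tag was not the target. Nothing in the labels says whether replicates 1 and 2 came from separate embryo collections. The 4 libraries are represented by 1 peak list without values per library. Read depth is therefore unknown, no peak has a replicate error, and the comparisons below are descriptions within that list with no p-value.

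Ecdysone is the steroid hormone that times moulting and metamorphosis in insects, and it also acts in the embryo. It binds a heterodimer of the nuclear receptors EcR and usp, which switches on a small set of early genes, and these early genes encode regulators of the larger set of late genes. Eip74EF encodes transcription factors with an ETS DNA-binding domain. Eip75B encodes nuclear receptors that bind heme. Both are long genes with several promoters, whose transcripts differ in their first exons. TBP is the subunit of the general factor TFIID that contacts the TATA element, and in yeast and mammals it also serves RNA polymerases I and III.

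TBP peaks at the Eip74EF locus ranged from weak to strong, and most stood several kb apart. The 8 peaks covered 7.13% of the window, at 8.89 peaks per 100 kb, and scored 17.35 to 105.31 with a median of 45.0. The score is the authors' own value for each peak and its scale is unknown. The median over all 3L peaks was 27.7. Because whole embryos were used, TBP bound in more cells cannot be told apart from more TBP bound per cell.

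The strongest Eip74EF peak lay well inside the window, at 3L 17605013 to 17606000. It was 988 bp wide, scored 105.31 and ranked 77 of 1436 by score on 3L, but only 519 by width. Its neighbour at 17614233 to 17615670 was wider, at 1438 bp, and weaker, at 63.23, with a score rank of 289 and a width rank of 274. A gap of 8232 bp separated this pair. On the lower-coordinate side of this pair were a 360 bp peak at 17589984 to 17590343 (score 26.83, rank 735) and a 271 bp peak at 17583771 to 17584041 (score 19.39, rank 924). The latter was the narrowest member of the locus. These 4 interior peaks were spread over 31.9 kb, with gaps of 5942 to 14669 bp between them, so no member of this interior group was close enough to another to be joined at 1 kb.

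The other 4 Eip74EF members sat near the bounds of the window, and 2 of them were strong. The peak at 17549792 to 17551108 scored 102.91 (rank 84, 1317 bp) and straddled the lower bound, with 1109 bp inside. A weaker peak at 17556702 to 17557036 scored 24.12 (rank 806, 335 bp). At the upper side, the peak at 17637033 to 17638513 was the widest member, at 1481 bp, and scored 89.78 (rank 128). The peak 202 bp beyond it, at 17638716 to 17639149, was the weakest of the locus (score 17.35, rank 994, 434 bp). Between these edge peaks and the interior group lay peak-free stretches of 26734 bp on the lower side and 21362 bp on the upper side. By length they ranked 241 and 290 among the 1435 gaps on 3L, whose median was 4904 bp. With the bounds drawn in by 10 kb on each side, 4 peaks remained in the locus and the covered share was 4.37% in place of 7.13%. The median stretch of 90 kb on 3L, the length of the full window, had 4.09% of its bases in peaks. No stretches of the narrowed length were counted.

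In the RefSeq gene table, which belongs to release 6, the protein-coding neighbours of Eip74EF are CG7542 and CycT on the lower side, and Vps60 and anchor on the upper side. CycT encodes cyclin T, a subunit of the elongation factor P-TEFb. The table was used for gene names and order, and no coordinate was carried between releases. The edge peaks were therefore not assigned to Eip74EF or to a neighbour, and no member was assigned to a particular promoter. Just outside the bounds, peaks lay at 17549193 to 17549723, 277 bp below the lower bound and 68 bp from the edge peak, with a score of 18.02, and at 17646237 to 17648075, 6237 bp above the upper bound with a score of 68.73.

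The Eip75B locus carried more peaks than Eip74EF, and nearly all of them scored below the median of the whole list. Its 11 peaks scored 9.19 to 56.32 with a median of 15.4, below the 3L median of 27.7, and covered 4.45% of the window. At 8.80 peaks per 100 kb its density was close to the 8.89 of Eip74EF. From its first to its last peak, 3L as a whole had 5.88 per 100 kb. Of the 11, 1 peak, at 17992373 to 17993390, scored above the median of the whole list, which was 29.65, as did 47.0% of all 3L peaks. That peak was also the widest of the locus, at 1018 bp, with a score of 56.32 (rank 361 on 3L) and a width rank of 499. The next in both score and width was the peak at 18009192 to 18009943, with a score of 27.62 (rank 720) and a width of 752 bp. That score was close to the 3L median.

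In Eip75B, peaks 2 to 10 counted from the lower side formed a run of 9 between 17979578 and 17998975. The run spanned 19.4 kb, or 15.5% of the window, and its peaks were separated by a median of 1350 bp, with gaps from 94 to 5310 bp. A close group of 3 peaks lay near its lower end. They lay at 17981236 to 17981842 (score 22.99, 607 bp), 17982299 to 17982846 (score 26.83, 548 bp) and 17982941 to 17983254 (score 15.72, 314 bp), with 456 bp and 94 bp between them. On their upper side followed a 315 bp peak at 17985001 to 17985315 (score 12.37) and a 298 bp peak at 17986765 to 17987062, the narrowest and weakest of the locus (score 9.19, rank 1351).

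The same run held the top peak and, on its upper side, another close pair. The pair consisted of a 400 bp peak at 17997914 to 17998313 (score 10.42) and a 568 bp peak at 17998408 to 17998975 (score 14.15), 94 bp apart. The first peak of the run, at 17979578 to 17979984, scored 11.51 over 407 bp. Below the run, an isolated peak at 17965634 to 17965966 scored 15.4 over 333 bp. Joining peaks less than 1 kb apart turned the 11 deposited peaks into 8 regions, against 7 for the 8 peaks of Eip74EF. The run was picked out after its positions had been seen, and the stretch length used next was its own exact span. Taking each 3L peak in turn as the start of a stretch of the same length, 12 of 1436 starts (0.836%) held at least 9 whole peaks, in 5 separate places including this one. The median start held 3 and the highest count was 11. This count was not repeated with close peaks joined, and all 3 Eip75B gaps under 1 kb lay inside the run.

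The rest of the Eip75B window was empty of called peaks. From the end of its last peak to the upper bound, 60057 bp or 48.0% of the window held none. The peak-free stretch went on beyond the bound for 89044 bp in all, to a peak at 18098988 to 18100379 (score 53.74), and ranked 50 among 1435 gaps on 3L. On the lower side the nearest peak outside was at 17905561 to 17905988 (score 20.8), leaving a gap of 59645 bp, ranked 96. An absent peak means that none was called under the authors' threshold, and the depth that would set a detection limit is unknown. Because no peak lay within 10 kb of either bound, on either side, moving the bounds by 10 kb left all 11 members in place. In the gene table, Eip75B has 4 smaller genes within its extent, lncRNA:CR45921, lncRNA:CR45922, CG32192 and CG42393, and its members were not assigned between them.

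**Figure D1:**
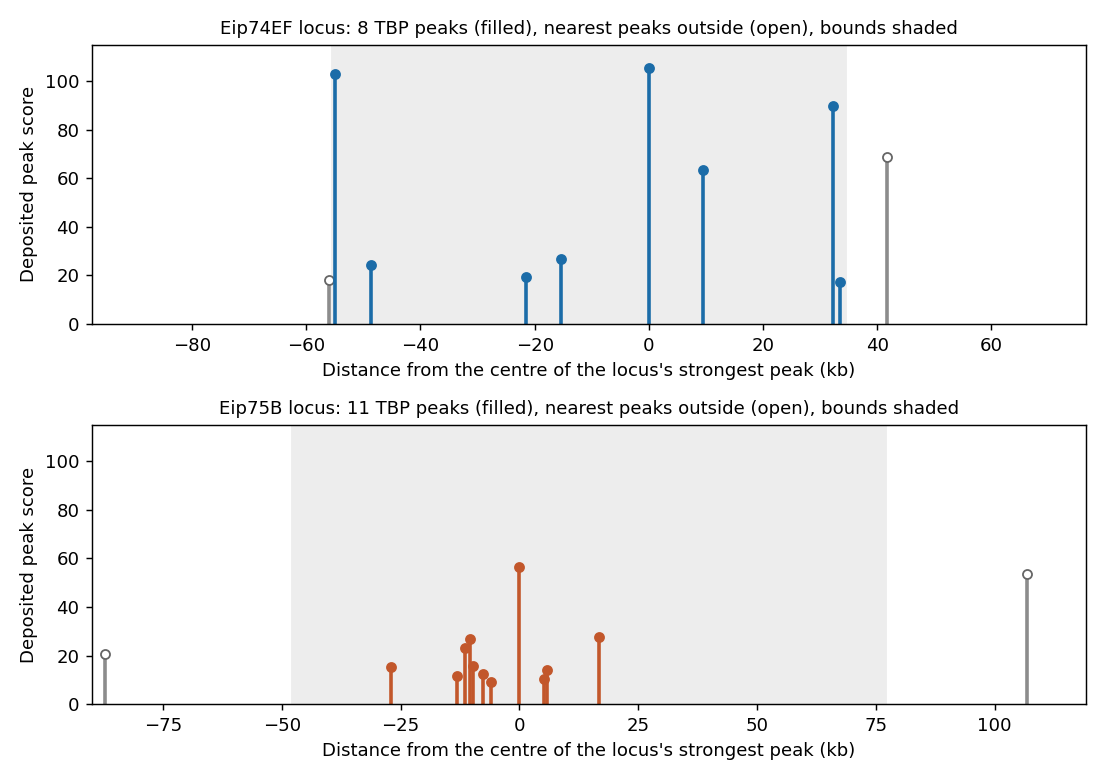
Deposited TBP peak score (vertical axis, scale unknown) against distance in kb from the centre of the strongest peak of each locus; filled points are members, open points the nearest peaks outside, and shading marks the bounds of the rule. Eip74EF has 4 peaks above a score of 60, of which 2 lie within 10 kb of a bound. The lowest of these 4, at 63.23, ranked 289 of 1436 by score on 3L. Eip75B has a run of 9 peaks around its top peak of 56.32 and no peak in the upper 60057 bp.

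Set against the whole of 3L, the loci differed in the scores of their peaks. For Eip74EF, 3 of 8 peaks reached the highest 10% of 3L scores (86.2 or more), where 10.2% of all 3L peaks did. Of those 3, only the peak at 17605013 lay more than 10 kb inside the bounds. For Eip75B, 0 of 11 peaks reached that level. Peaks above the median score of the list numbered 4 of 8 at Eip74EF and 1 of 11 at Eip75B, against 47.0% of 3L peaks. The Eip74EF share is thus near that of the arm and the Eip75B share is lower. With so few peaks and no replicate values, no test of these shares was made.

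Neither locus held a wide TBP peak. No member reached 2000 bp, a width that 7.66% of 3L peaks did reach. None reached 1500 bp either, and the widest member, at 1481 bp, ranked 254 of 1436 by width on 3L. With 8 and 11 members, and a background share of only 7.66% at 2000 bp, nothing particular to these genes is read from that absence. The 3L share at 1500 bp was not computed, so nothing is read from the absence at 1500 bp either. Narrow peaks, under 500 bp, made up 4 of 8 members at Eip74EF and 6 of 11 at Eip75B, against 35.3% on 3L. Median width was 711 bp at Eip74EF and 407 bp at Eip75B, with 726.5 bp for all 3L peaks.

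Most peaks at Eip74EF were high for their width, while most at Eip75B were not. Score divided by width, a measure added after the values had been seen, had a median of 71.8 per kb at Eip74EF, 37.9 per kb at Eip75B and 40.4 per kb over all 3L peaks. At Eip74EF 7 of 8 peaks, and at Eip75B 4 of 11, lay above the 3L median of this measure, which 50.0% of 3L peaks exceed by construction. The exception at Eip74EF was the 434 bp edge peak, at 40.0 per kb. The interior peak at 17614233 was only a little above that median, at 44.0 per kb and rank 602. The 4 interior Eip74EF peaks alone had a median of 73.0 per kb. By this measure the peak at 17605013 ranked 39 on 3L, at 106.6 per kb. A small width raises the measure. The narrow peaks at 17556702, 17583771 and 17589984 ranked 138, 142 and 124, though their scores of 24.12, 19.39 and 26.83 were below the 3L median of 27.7. The highest at Eip75B was its top peak, at 55.3 per kb and rank 334.

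**Figure D2:**
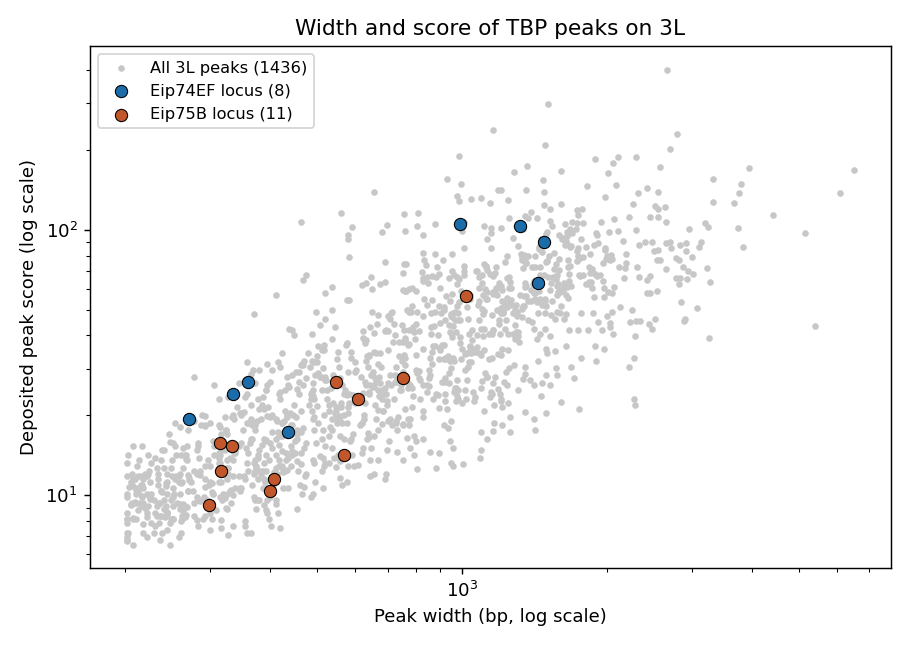
Width in bp against deposited score, both on log axes, for all 1436 TBP peaks on 3L (grey) and for the members at Eip74EF (blue) and Eip75B (orange). The Eip74EF points lie mostly along the upper side of the cloud, at a median of 71.8 score units per kb, and 10 of 11 Eip75B points fall below a score of 29.65.

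With the bounds of the rule, the number of peaks in each locus was somewhat above the middle of the arm. For Eip74EF, 4 of the 8 peaks lay within 10 kb of a bound, and the narrowed window was not set against stretches of its own length. Stretches of 90 kb laid end to end along 3L held a median of 4 peaks (middle 50% of stretches 2 to 8, range 0 to 28). Of 269 such stretches away from Eip74EF, 197 held fewer than 8 peaks, 16 held 8 and 56 held more. For 125 kb the median was 7 peaks (middle 50% 4 to 10, range 0 to 35), and of 193 stretches 146 held fewer than 11, 11 held as many and 36 held more. Counted only among peaks above the median score of the list, Eip75B had 1 peak, and 13.5% of stretches had fewer, that is none. The corresponding share with fewer for Eip74EF, with 4 such peaks, was 70.9%. Stretches with the same number of such peaks as the locus were not counted separately. By covered sequence, 68.8% of stretches were below Eip74EF and 46.6% below Eip75B.

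**Figure D3:**
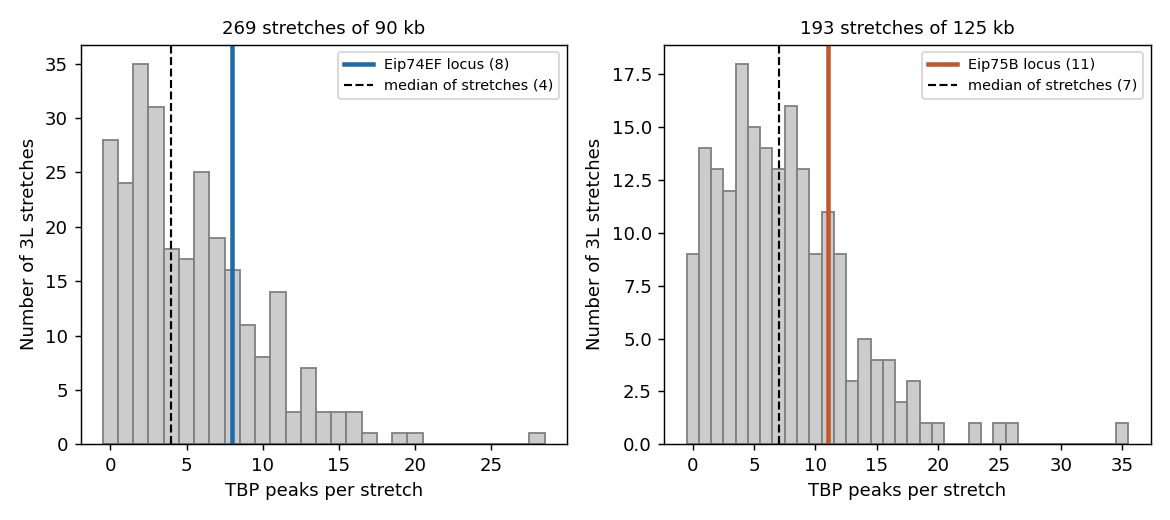
Number of TBP peaks (horizontal axis) in end-to-end stretches of 3L, as the number of stretches (vertical axis), for 90 kb and 125 kb stretches; the coloured line marks each locus and the dashed line the median of the stretches. Both loci, with 8 and 11 peaks, lie above the medians of 4 and 7 and inside the range of the other stretches.

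Counting all called peaks, the chromosome between the loci was sparser than either. Its 305 kb held 10 peaks, or 3.28 per 100 kb, with scores of 7.42 to 74.95 and a median of 36.3. Above the median score of the list it had 5 peaks, against 1 in the 125 kb of Eip75B and 4 in the 90 kb of Eip74EF. For such peaks the interval was thus sparser than Eip74EF but not than Eip75B. None of the 10 peaks between the loci reached the score of the 3 strongest Eip74EF peaks. All 3 of those, and the sixth member of Eip74EF at 63.23, also exceeded the top score of Eip75B.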

How the data were processed

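The deposited peaks are on FlyBase release 5 and came from MACS, per the file headers. The submitters' processing notes list the build BDGP5 and, with no roles, MACS2, BWA and CASAVA (1.7.0.2 and 1.7.0.3). For the threshold, duplicate handling and pooling of replicates, nothing is given in the sources used here. The authors deposited a start, an end and a score for each peak, the score without a scale. Widths, gaps (bases between peaks), ranks (ties share the better rank) and covered bases were computed with Python 3.11.15, pandas 2.3.3 and numpy 2.4.6, and checked on simulated data. Every member peak is reported. Stretches overlapping a locus were left out of its comparison. Only a release 6 gene table was at hand, so the planned promoter motifs were not described; of 28 other ecdysone pathway genes 27 matched it uniquely, but none was placed among the peaks. No sequences were used. Members, lists and bounds were chosen with earlier results of these data known.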

Additional observations from a re-analysis of the deposited data

How the results depend on the processing

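No paired analysis was possible because the list gives each peak 1 score for all libraries; leaving out a replicate was likewise not possible. Of 50 alternatives, 33 stayed within tolerance and 17 did not, with no test involved. The tolerance was 1.5 times for counts and peak-free lengths, and the exact 95% binomial interval for shares and ranks, which is narrow for covered bases. With bounds narrowed by 10 kb, Eip74EF had 4 peaks, 1 of them in the highest 10% of 3L scores, and its covered share went from 7.13% to 4.37%. Among peaks above the median score of the list, Eip74EF had 4 peaks and Eip75B had 1; for Eip75B, 13.54% of stretches then had fewer peaks and 20.31% less covered sequence, and its covered share went from 4.45% to 0.81%. Fewer peaks counted is the construction of these alternatives. The longest peak-free stretch of Eip74EF then went from 26734 to 53904 bp, an alternative added after the data had been seen. Unknown depth limits every statement on weak or missing peaks.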
